A study of Homo sapiens with 29 samples.

Results

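The stretch of human chromosome 17 described here runs from 68900000 to 70300000 (build hg19, 1.4 Mb) and holds SOX9, at 70117161-70122561, and the gene desert upstream of it. Its members were chosen by position alone: every ATAC-seq peak of 29 libraries that overlapped the window was taken, and peaks that overlapped or touched were merged into regions. This gave 65 regions of the 166696 in the genome. A library is said to hold a region when at least 1 of its peaks overlaps the region by 1 bp or more. Distances are given from the nearer edge of a region to the SOX9 start at 70117161, and upstream means lower coordinates.

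SOX9 encodes a transcription factor of the SOX family that binds DNA through an HMG box and bends it. It directs cartilage formation, testis determination and the growth of prostate buds, and it is expressed in the basal epithelium of the prostate and in part of prostate cancers. The gene is known for its distant control: enhancers are spread over the desert, and a prostate cancer risk locus in band 17q24 lies far upstream, near 69100000, with enhancers that contact the SOX9 promoter. FOXA1 is a pioneer transcription factor of prostate cells, one that can bind its sites in closed chromatin and open them, and it acts together with the androgen receptor at many prostate enhancers. In the order of genes in the RefSeq annotation of GRCh38.p14, the neighbouring protein-coding genes are KCNJ2, a potassium channel gene before SOX9, and SLC39A11, a zinc transporter gene after it, and the genes annotated between KCNJ2 and SOX9 are non-coding RNAs and pseudogenes, among them CASC17, ROCR and SOX9-AS1.

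ATAC-seq uses a transposase that cuts open chromatin, so a peak marks DNA that was accessible. All libraries came from 22Rv1, an established human prostate cancer cell line, treated for 3 h. Parental cells gave 5 groups of 3 libraries: 0.1% DMSO, the stereoprobe WX-02-23 at 20 µM, its stereoisomer WX-02-43 at 20 µM, and PladB (pladienolide B, which binds SF3B1 in the spliceosome), given at either 10 or 100 nM. Engineered cells gave 7 groups of 2 libraries, and all of them overexpressed Y36C-PHF5A, a mutant of an SF3B1 partner that is known to make cells resistant to PladB. One engineered line carried doxycycline (Dox)-inducible WT-FOXA1 and was treated with DMSO, WX-02-23 (20 µM) or PladB (100 nM) with Dox, and with DMSO without Dox. The other line carried Dox-inducible C258A-FOXA1, which lacks the cysteine that WX-02-23 is known to label, and was given the same 3 treatments, all with Dox. The labels name no FOXA1 deletion, so the FOXA1 that 22Rv1 cells make themselves was presumably present in every group. Its level was not measured here. Whether a line was 1 clone, how long Dox was given and whether replicates came from separate cultures is not given in the sources used here, so p-values measure only the spread between these libraries. Peaks were not matched to marker genes of prostate cells, because no gene annotation of build hg19 was used here.

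Depth bears on every count. Peaks per library numbered 82538 to 98193 in parental cells and 62832 to 92658 in engineered cells. Background coverage, read from the steps of the fold values and usable only as a relative depth, ranged from 0.546 to 1.502 reads per base. Names inside the lists set all parental libraries apart from all engineered libraries. Parental and engineered libraries may thus come from separate processing runs, and run and cell line cannot be told apart. In these bulk libraries, fewer cells with an open region and less opening per cell cannot be told apart either.

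Regions were somewhat fewer per Mb in the window than in the genome, and they were unevenly spaced. The window held 46.4 regions per Mb, where the genome held 55.5 and chromosome 17 held 73.2 per Mb. The 1.217 Mb upstream of SOX9 contained 54 regions, or 44.4 per Mb. One region lay across the SOX9 start, and 10 lay in the 0.177 Mb downstream, or 56.4 per Mb. The longest stretch without a region in any library was 162.6 kb, from 69581718 to 69744339, and the median gap was 7.24 kb. Of 14 bins of 100 kb, 1 was empty, 7 held at most 3 regions, and 3 bins held the highest number, 10. Gaps and bins are given for the window alone.

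Few of the regions were shared by all libraries. In the window 7 of 65 regions (10.8%) were held by all 29 libraries, compared with 21.5% of regions in the genome, and 14 (21.5%) were held by 1 library, compared with 16.9%. Both cell backgrounds held 30 regions (46.2%), parental libraries alone held 21 (32.3%) and engineered libraries alone held 14 (21.5%). In the genome the 3 shares were 56.2%, 25.2% and 18.5%. These shares are descriptions, as neighbouring regions and libraries of 1 group are not independent.

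Shared regions were also the strong and wide ones. Part of this is built into the method, since merging over more libraries can only widen a region. A stronger peak also passes the threshold of more lists. The values below are given for the window alone. The authors' fold enrichment, which is the pileup at a peak's summit over the local background of its own library, is used here only to describe peaks. Within the 7 regions held by all 29 libraries it ranged from 5.50 to 15.8 with a median of 11.0. These regions had a median width of 1046 bp. The other 58 regions had a median fold of 6.47, and those held by 1 library had a median fold of 4.82 and a median width of 151.5 bp. By p-value within its own list, the median peak of the 7 regions lay at percentile 81.7 and that of the others at percentile 29.8.

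**Figure D1:**
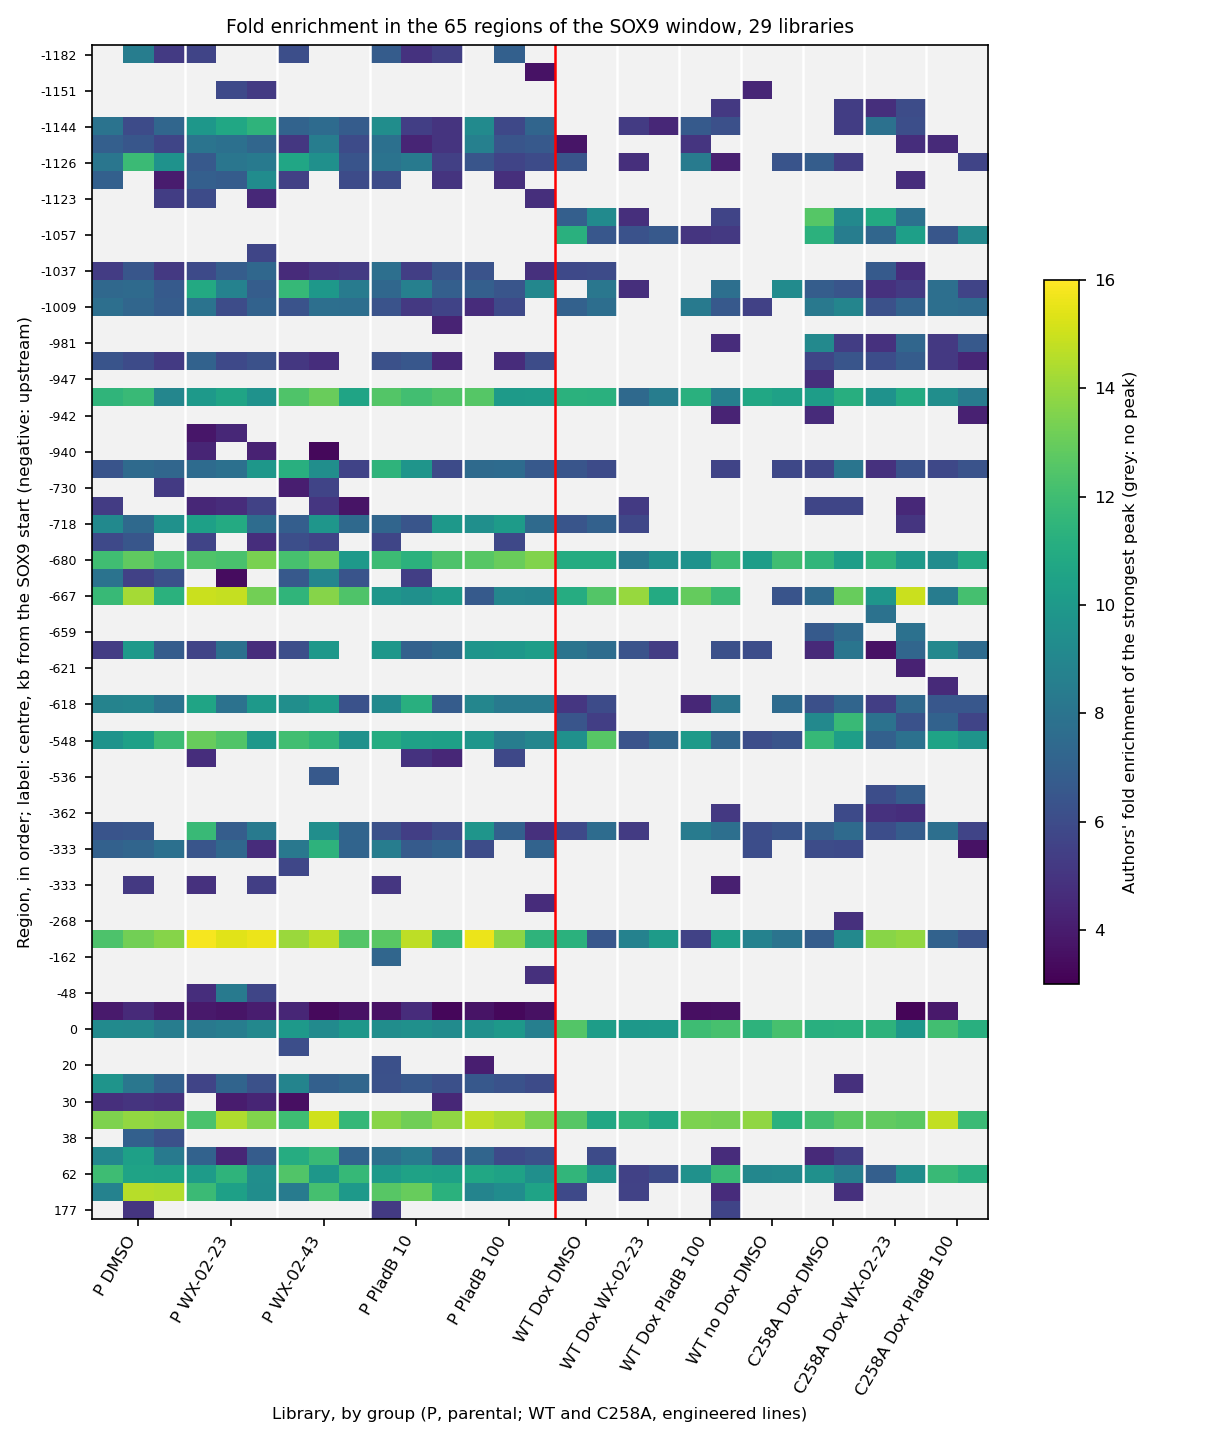
Fold enrichment of the strongest peak in each of the 65 regions (rows, ordered along the chromosome and labelled by the centre's distance from the SOX9 start in kb) in each of the 29 libraries (columns, by group, with parental libraries left of the red line). Grey means that the library had no peak; 7 rows are filled in all 29 libraries, and many rows are filled on only 1 side of the line.

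The SOX9 start was open in every library. The region across it, chr17:70116695-70118016 (1322 bp), was held by 29 of 29 libraries with a fold of 8.27 to 12.5 and a median of 9.92. It lay at percentiles 85.8 to 93.2 of the lists, and its summits fell 40 to 110 bp before the start, with a median of -51 bp. In parental cells the fold was 9.23, 9.12 and 8.53 with DMSO, 8.27, 8.51 and 9.07 with WX-02-23, and 10.0, 9.22 and 9.89 with WX-02-43. With PladB it was 9.37, 9.51 and 9.28 at 10 nM and 9.55, 9.95 and 8.63 at 100 nM. The WX-02-23 and DMSO values overlapped, and all 15 parental values lay between 8.27 and 10.01.

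In engineered cells the fold at the SOX9 start was 12.5 and 10.2 in the WT-FOXA1 line with Dox and DMSO, 9.92 and 9.99 with WX-02-23, 12.0 and 12.2 with PladB, and 11.4 and 12.2 without Dox. For C258A-FOXA1 it was 11.2 and 11.2 with DMSO, 11.4 and 9.90 with WX-02-23, and 12.0 and 11.2 with PladB. The 2 WT-FOXA1 libraries with WX-02-23 lay below both DMSO libraries of that line, while those of the C258A-FOXA1 line lay on either side of their controls. Fold was not tested between groups, because each list has its own background. The presence of the peak did not differ: no library lacked it.

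A weaker region 0.5 kb upstream of the start, chr17:70115836-70116643, was held by all 15 parental libraries, with a fold of 3.23 to 4.65 and a median of 3.74, and by 4 of 14 engineered libraries. Those 4 were both WT-FOXA1 libraries with PladB (3.55 and 3.59), C258A-FOXA1 with WX-02-23 replicate 2 (3.18) and C258A-FOXA1 with PladB replicate 1 (3.89). No DMSO library of either engineered line held it. The only other region within 10 kb of SOX9, chr17:70123345-70123494, was 6.2 kb downstream of the gene's start and was held by 1 library, parental WX-02-43 replicate 1, with a fold of 6.10.

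**Figure D2:**
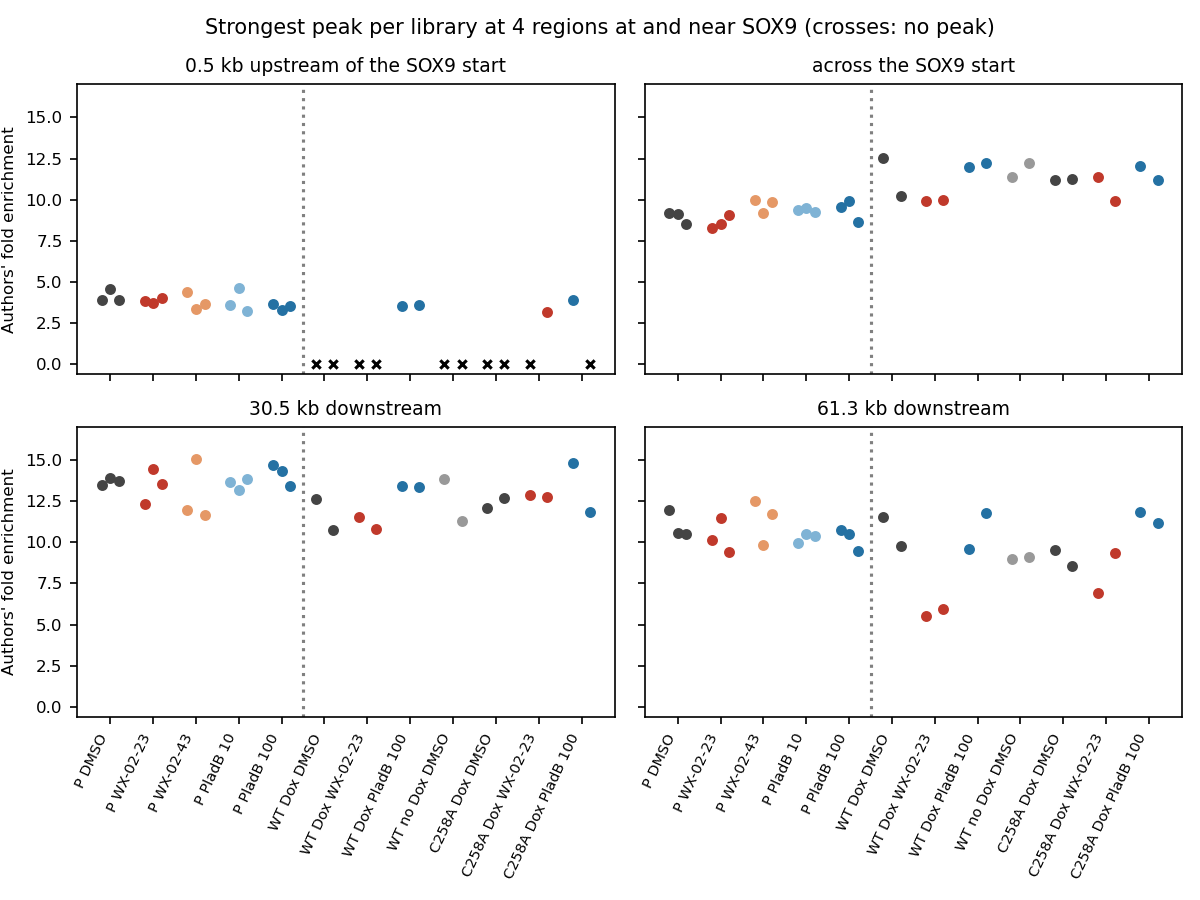
Authors' fold enrichment of the strongest peak (y axis, no unit) in each library at 4 regions at and near SOX9, by group on the x axis, with parental groups left of the dotted line; each point is 1 library and crosses mark libraries with no peak. All 29 libraries have a peak across the SOX9 start and at the regions 30.5 and 61.3 kb downstream, and 10 engineered libraries lack one 0.5 kb upstream.

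The strongest regions besides the SOX9 start lay on both sides of the gene, by mean percentile of the authors' p-value in the parental DMSO lists. A region 30.5 kb downstream, chr17:70147655-70148427, ranked highest (percentile 92.1) and had a fold of 10.7 to 15.1 over all 29 libraries. Next after the SOX9 start (89.8) came chr17:69436589-69437637, 679.5 kb upstream (88.7), with a fold of 8.30 to 13.6. The list closes with regions 61.3 kb downstream (87.4) and 210.3 kb upstream (81.1), and all 5 were held by every library.

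In the 7 regions held by all 29 libraries the fold could be set side by side between WX-02-23 and DMSO, although each list has its own background and the folds have no test. A wide region can hold more than 1 summit, so the strongest peaks of 2 libraries need not share a summit. In the WT-FOXA1 line both WX-02-23 libraries lay below both DMSO libraries in 5 of the 7 regions and above them in none, where 58.4% and 4.51% of the 35901 such regions in the genome did so. In the C258A-FOXA1 line they lay below in 1 and above in 2, where 25.3% and 11.8% did so in the genome. In parental cells all 3 lay above DMSO in 1 region and below in none, where 9.62% and 8.52% did so. Most shared regions of the genome thus had lower folds in the WT-FOXA1 libraries with WX-02-23, and the count in the window is to be read against that background.

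The 5 regions in the WT-FOXA1 line were the SOX9 start and those 943.6 kb, 679.5 kb and 547.6 kb upstream and 61.3 kb downstream. At 943.6 kb, chr17:69172566-69173611, the fold was 11.3 and 11.2 with DMSO and 7.46 and 8.49 with WX-02-23. At 679.5 kb it was 11.0 and 11.0 against 8.30 and 9.54. There the strongest peak of WX-02-23 replicate 2 (9.54) had its summit at -679800 bp from the SOX9 start. Those of replicate 1 and of both DMSO libraries lay at -680200 bp, so the fold of 9.54 belongs to another summit. At 547.6 kb, chr17:69568835-69569552, the folds were 9.55 and 12.6 against 6.31 and 7.24. This was also the region with lower folds in the C258A-FOXA1 line, 11.7 and 10.3 against 7.01 and 7.83.

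At the region 61.3 kb downstream, chr17:70178432-70179835, the WT-FOXA1 folds were 11.5 and 9.76 with DMSO and 5.50 and 5.94 with WX-02-23. Those 2 values were the lowest of all 29 libraries there and lay at percentiles 25.3 and 37.0 of their lists, where the DMSO libraries lay at 73.2 and 80.3. The strongest peak of WX-02-23 replicate 1 in this line had its summit at 62220 bp from the SOX9 start. That of every other library lay at 61670 to 61770 bp, so the fold of 5.50 belongs to another summit of the region. The C258A-FOXA1 line had a fold there of 9.54 and 8.57 with DMSO and 6.95 and 9.37 with WX-02-23, so these groups overlapped. In parental cells it was 12.0, 10.5 and 10.5 with DMSO and 10.1, 11.4 and 9.44 with WX-02-23, which overlapped too.

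The region 210.3 kb upstream, chr17:69905941-69906824, had the higher fold with WX-02-23 in parental cells, at 12.4, 13.2 and 13.6 with DMSO and 15.8, 15.4 and 15.6 with WX-02-23. With WX-02-43 it was 14.0, 14.7 and 12.5, which overlapped DMSO and stayed below WX-02-23. The C258A-FOXA1 line had 6.86 and 9.11 with DMSO and 13.7 and 13.9 with WX-02-23, at percentiles 29.8 and 54.8 against 81.6 and 80.7. In the WT-FOXA1 line the groups overlapped, with 11.3 and 6.51 for DMSO and 8.76 and 10.1 for WX-02-23. The other region with higher folds in the C258A-FOXA1 line, 30.5 kb downstream, had 12.09 and 12.70 with DMSO and 12.90 and 12.73 with WX-02-23. This comparison of folds was chosen after the values were seen.

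The question put to parental cells was whether the stereoprobes or PladB changed which regions of the window were open. Parental DMSO libraries held 30, 32 and 31 regions, and WX-02-23 libraries held 35, 32 and 35. The group means were 31.0 ± 1.0 and 34.0 ± 1.7 (SD, n = 3), a difference of 3.0 regions with pairwise differences of 0 to 5 (exact two-sided permutation p = 0.2, Benjamini-Hochberg adjusted over 5 comparisons p = 0.33). With 3 libraries against 3, no p-value can be under 0.1. Scaled to list length, the window took 3.57 ± 0.05 per 10000 regions held with DMSO and 3.83 ± 0.13 with WX-02-23. These 2 groups did not overlap, with a difference of 0.263 and pairwise differences of 0.074 to 0.441 (exact permutation p = 0.1, adjusted p = 0.25). At a q-value of 1e-05 or below the difference was 0.0212 per 10000 (exact permutation p = 0.6) and 1.0 regions, and with lists of equal length it was 0.130 (exact permutation p = 0.4) and 1.33 regions.

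**Figure D3:**
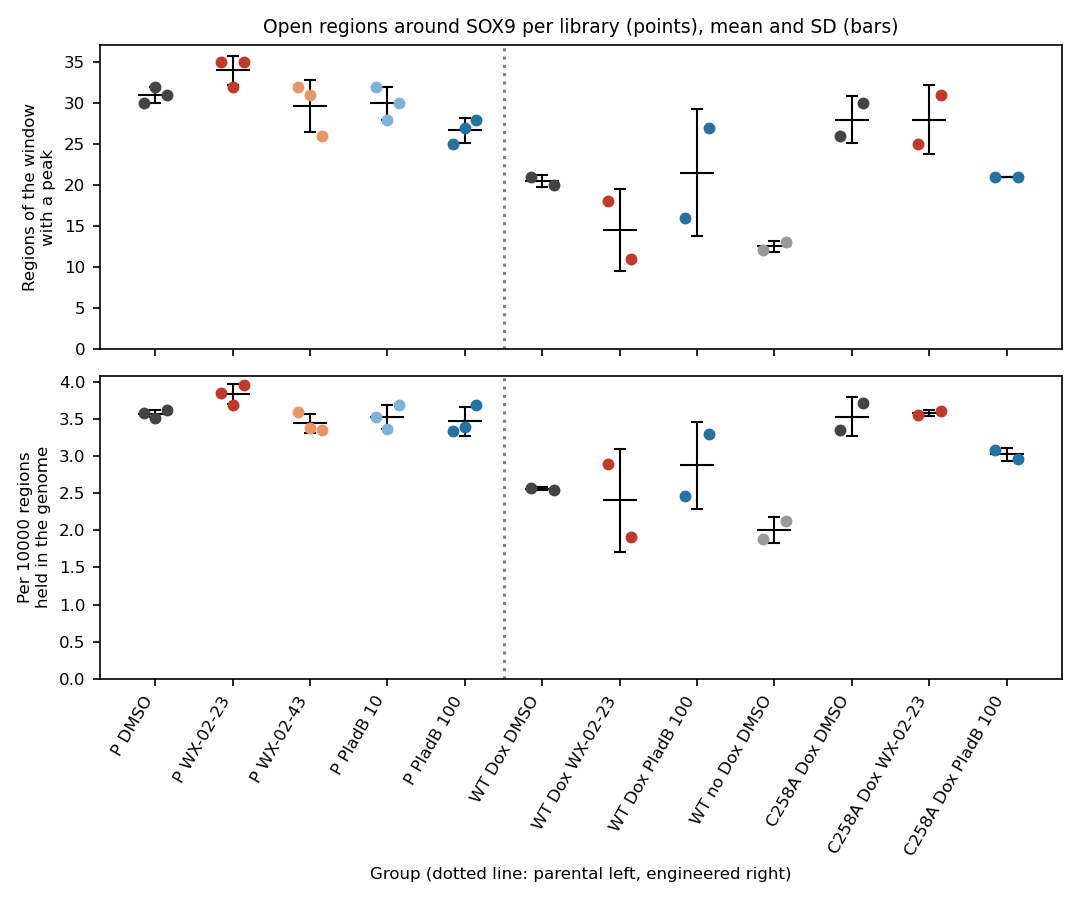
Number of the 65 regions with a peak (upper panel, y axis) and the same per 10000 regions held in the genome (lower panel) for each library, by group on the x axis, with points for libraries and bars for the mean and SD over 3 parental or 2 engineered libraries. Parental libraries hold 25 to 35 regions, engineered libraries 11 to 31, and both libraries without Dox lie at 12 and 13.

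One region was gained with WX-02-23, meaning that it had a peak in all 3 treated libraries and in no DMSO library, and none was lost. That is 2.38% of the 42 regions held by any of these 6 libraries, where 1.82% of regions in the genome were gained and 1.18% were lost. The gained region, chr17:70069331-70069601, lies 47.6 kb upstream of SOX9 and had folds of 4.72, 8.30 and 5.72, at percentiles 3.57, 49.1 and 17.2 of the 3 lists. None of the other 26 libraries held it, the 4 engineered libraries with WX-02-23 included. Its 3 summits lay within a few bases of one another, between 47687 and 47682 bp before the SOX9 start. The call was lost when peaks were limited to a q-value of 1e-05 or below and when the lists were made equally long, as 2 of 3 treated libraries then held the region. The number gained was 2 without any 1 of the WX-02-23 libraries or without DMSO replicate 1, and the number lost was 1 without WX-02-23 replicate 2 or DMSO replicate 1. By the rule for a call, leaving out a library can only keep or add calls.

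The regions whose presence was most like that of the gained one, among 39 regions held by 3 to 28 libraries, were chr17:68965606-68965903 and chr17:69177240-69177513. Each matched it in 27 of 29 libraries (93.1%). Most of that likeness is shared absence, because each pair was held together by 2 libraries and by either in 4.

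WX-02-43, which shares the DMSO controls, gave 32, 31 and 26 regions, a mean of 29.7 ± 3.2 (SD, n = 3). The difference from DMSO was -1.33 regions, with pairwise differences of -6 to 2 (exact permutation p = 0.9, adjusted p = 0.9), and 0.129 fewer per 10000 (exact permutation p = 0.3, adjusted p = 0.5). No region was gained or lost among 40 held, where 0.34% and 0.369% were in the genome. At a q-value of 1e-05 or below the difference was -0.418 per 10000 (exact permutation p = 0.1) and with lists of equal length -0.364 (exact permutation p = 0.3). The lowest library, replicate 3, had the highest background coverage of all, 1.502 reads per base, and without it the difference turned to 0.5. One region was lost without WX-02-43 replicate 1 or without DMSO replicate 1.

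The stereoisomers, which have the same bonds in a different spatial arrangement, were compared directly at 20 µM and 3 h as 1 pair. WX-02-23 libraries held 4.33 more regions than WX-02-43 libraries, with pairwise differences of 0 to 9 (exact permutation p = 0.2, adjusted p = 0.33). Per 10000 regions held, the window took 3.83 ± 0.13 with WX-02-23 and 3.44 ± 0.13 with WX-02-43 (SD, n = 3). On that scale the groups did not overlap, with a difference of 0.393 and pairwise differences of 0.107 to 0.604 (exact permutation p = 0.1, the smallest that this design allows, adjusted p = 0.25). The region 47.6 kb upstream of SOX9 was the only call among 43 regions (2.33% gained, against 1.6% in the genome), and none was lost (1.07% in the genome). Here too, leaving out a library can only keep or add calls. Without WX-02-23 replicate 1 or 3 there were 2 regions gained, and without its replicate 2 there were 3. Without WX-02-23 replicate 2 or WX-02-43 replicate 3, 1 was lost.

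PladB at 10 nM gave no call in the window. The libraries held 32, 28 and 30 regions, 30 ± 2.0 (SD, n = 3), a difference of -1.0 with pairwise differences of -4 to 2 (exact permutation p = 0.7, adjusted p = 0.875). Per 10000 regions held the difference was -0.0489 (exact permutation p = 0.8, adjusted p = 0.8), and at a q-value of 1e-05 or below it was -0.378 (exact permutation p = 0.2). No region of 40 was gained or lost, where 0.408% and 0.556% were in the genome. Without PladB replicate 1 the number gained was 1, and without PladB replicate 2, PladB replicate 3 or DMSO replicate 1 the number lost was 1.

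PladB at 100 nM gave 25, 27 and 28 regions, 26.7 ± 1.5 (SD, n = 3), and all 3 libraries lay below the 3 DMSO libraries. The difference was -4.33 regions with pairwise differences of -7 to -2 (exact permutation p = 0.1, adjusted p = 0.33). Background coverage moved with it, at 0.705 ± 0.038 reads per base compared with 0.935 ± 0.062 with DMSO, and so did the regions held in the whole genome, at a mean of 76908 compared with 86844. Per 10000 regions held the 2 groups overlapped, at 3.47 ± 0.19 and 3.57 ± 0.05 (exact permutation p = 0.4, adjusted p = 0.5). At a q-value of 1e-05 or below the scaled difference was -0.444 (exact permutation p = 0.1), and with lists of equal length the difference was -1.67 regions (exact permutation p = 0.3). The part of depth in the lower count was not tested.

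With PladB at 100 nM 2 regions were lost and none was gained, which is 4.88% and 0% of 41 regions, where 1.68% were lost and 0.187% gained in the genome. They lay 673.0 kb upstream, chr17:69443824-69444181, with DMSO folds of 7.98, 5.49 and 6.25, and 30.1 kb downstream, chr17:70147280-70147487, with DMSO folds of 4.74, 4.98 and 4.81. Neither was held by any engineered library, and both were missing from some libraries of other parental groups. The upstream one was held by 1 of 3 libraries with WX-02-23, 1 of 3 with PladB at 10 nM and 3 of 3 with WX-02-43. For the downstream one it was 2, 1 and 1 of 3 in the same order. The downstream one ends just before the strong region at 30.5 kb, which kept its peak in all 3 libraries. With lists of equal length 1 of the 2 remained called.

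The risk locus was examined through the regions within 100 kb of 69100000 that at least 8 libraries held. There were 6 of them. The region closest to the position, chr17:69107648-69108811 (1164 bp, 1008.4 kb upstream of SOX9), was made of up to 4 peaks in a library and was held by 14 of 15 parental libraries. Its fold was 7.75, 7.30 and 6.79 with DMSO, 7.95, 6.04 and 7.07 with WX-02-23 and 6.34, 7.74 and 7.71 with WX-02-43. With PladB it was 6.30, 5.14 and 5.60 at 10 nM, and 4.67 and 5.88 at 100 nM, where replicate 3 had no peak. All 5 of these PladB values lay below the 3 DMSO values, and the values with either stereoprobe overlapped those with DMSO. How often regions of the genome had this order with PladB was not computed, and the folds were not tested.

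In engineered cells the same region was held by both WT-FOXA1 libraries with DMSO (7.04 and 7.71), by neither with WX-02-23, by both with PladB (8.36 and 6.63) and by 1 of 2 without Dox (5.53). All 6 libraries of the C258A-FOXA1 line held it, with folds of 8.23 and 8.94 with DMSO, 6.22 and 7.16 with WX-02-23, and 7.74 and 7.61 with PladB. WX-02-23 and DMSO thus did not overlap in the WT-FOXA1 line in presence, and in the C258A-FOXA1 line presence was the same in both.

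Next to it upstream, a pair of regions at 1036.5 kb and 1035.4 kb was open in nearly all parental libraries. The former, chr17:69080414-69080707, was held by 14 of 15 parental libraries at folds of 4.58 to 7.75 with a median of 5.67. In engineered cells it was held by both WT-FOXA1 libraries with DMSO (5.88 and 5.96) and by both C258A-FOXA1 libraries with WX-02-23 (6.68 and 4.70), and by no other engineered library. The latter, chr17:69081213-69081768, was held by 25 libraries, and in parental cells its fold ran from 6.40 to 11.7 with a median of 7.49.

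A region at 1056.7 kb, chr17:69059929-69060493, was absent from all 15 parental libraries and from both engineered libraries without Dox, and was held by all 12 engineered libraries with Dox. Its fold was 11.2 and 6.51 with DMSO, 6.27 and 6.65 with WX-02-23 and 5.03 and 5.16 with PladB in the WT-FOXA1 line. For C258A-FOXA1 it was 11.3 and 8.49, 7.28 and 10.3, and 6.47 and 9.12 in the same order. It was the 1 region of the window (1.54%) with this pattern, where 1.46% of the regions in the genome had it.

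A region at 957.1 kb, chr17:69159635-69160057, separated the engineered lines. It was held by 13 of 15 parental libraries (4.47 to 7.07), by 6 of 6 C258A-FOXA1 libraries (4.41 to 6.78) and by 0 of 8 WT-FOXA1 libraries. In the genome 0.166% of regions were held by all 6 C258A-FOXA1 libraries and none of the 6 WT-FOXA1 libraries with Dox, and in the window it was 1 of 65 (1.54%). The last of the 6, chr17:69172566-69173611 at 943.6 kb, was held by all 29 libraries at folds of 7.46 to 13.0.

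Dox, which switches on the WT-FOXA1 transgene, went with more open regions in the window. The WT-FOXA1 line held 12 and 13 regions without Dox and 21 and 20 with it, a difference of 8.0 with pairwise differences of 7 to 9. Per 10000 regions held this was 2.00 ± 0.17 without Dox and 2.56 ± 0.02 with it (SD, n = 2), and the groups did not overlap. The lists also grew, from a mean of 62444 regions in the genome to 80148. Among 25 regions, 5 (20.0%) were gained and none was lost, where 13.2% were gained and 1.1% were lost in the genome. With 2 libraries against 2, no permutation p-value can be under 0.33, so none is given. With lists of equal length the difference was 3.5 and 3 regions were gained, and without no-Dox replicate 2 there were 8 gained and 2 lost.

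Parental cells, which have no transgene, held some of the regions gained with Dox and lacked others. The regions at 1056.7 kb, at 1117.9 kb (chr17:68998801-68999212) and at 586.8 kb (chr17:69530033-69530328) were held by no parental library. Their folds in the WT-FOXA1 line with Dox and DMSO were 11.2 and 6.51, 6.96 and 9.22, and 6.42 and 5.42. By contrast, the region at 717.6 kb (chr17:69398694-69399536) was held by all 15 parental libraries, at 6.44 to 11.0, and the one at 1036.5 kb by 14 of 15. Both C258A-FOXA1 libraries with Dox and DMSO held the former 3 and neither held the latter 2.

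WX-02-23 in the WT-FOXA1 line went with fewer open regions. The DMSO libraries held 21 and 20 regions and the WX-02-23 libraries 18 and 11, a difference of -6.0 with pairwise differences of -10 to -2. Per 10000 regions held in the genome the groups overlapped, at 2.56 ± 0.02 and 2.40 ± 0.69 (SD, n = 2). Among 25 regions, 5 (20.0%) were lost and 1 (4%) was gained, where 11.7% and 1.31% were in the genome. In the C258A-FOXA1 line the counts were 26 and 30 with DMSO and 25 and 31 with WX-02-23, a difference of 0.0 with pairwise differences of -5 to 5.

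Whether the change with WX-02-23 differed between the lines could not be decided. The difference of the 2 changes was -6.0 regions (exact permutation p = 0.611 over 36 arrangements, adjusted over 2 comparisons p = 0.611). The permutation takes the lines as alike within each treatment. WT-FOXA1 libraries, however, held fewer regions than C258A-FOXA1 libraries with DMSO (means 20.5 and 28.0) and with WX-02-23 (14.5 and 28.0). With these counts the p-value could not reach 0.0556, the smallest over 36 arrangements, and it does not bear on the change alone. The lower counts in the WT-FOXA1 line moved with list length, since its WX-02-23 lists held a mean of 59896 regions in the genome and its DMSO lists 80148. With lists of equal length the difference within the WT-FOXA1 line was -0.5 regions, and 2 regions were lost. Without WX-02-23 replicate 1 the difference was -9.5 and 8 regions were lost. Without replicate 2 it was -2.5 and 2 regions were gained.

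Of the 5 regions lost with WX-02-23 in the WT-FOXA1 line, 4 were held by all 4 C258A-FOXA1 libraries with DMSO or WX-02-23 (80.0%, compared with 30.6% of the 11370 such regions in the genome). None was lost in the C258A-FOXA1 line, where 6.05% were in the genome. Of the same 5, 4 were held by all 6 parental libraries with DMSO or WX-02-23 (80.0%, compared with 41.0%). Over so few regions these shares are descriptions.

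The lost regions all lay upstream of SOX9. Those at 1008.4 kb and 1036.5 kb belong to the risk locus. The others were chr17:69233978-69234300 at 882.9 kb (DMSO folds 6.42 and 5.96), chr17:69498483-69499244 at 617.9 kb (5.06 and 5.96) and the region at 586.8 kb (6.42 and 5.42). The region at 1008.4 kb was the 1 of the 5 that kept its call with lists of equal length, though not when 50% of the region had to be covered. At 586.8 kb parental libraries had no peak, while the C258A-FOXA1 line had folds of 9.14 and 11.8 with DMSO and 7.89 and 6.26 with WX-02-23. The gained region, chr17:68972618-68973032 at 1144.1 kb, was held by all 15 parental libraries and had folds of 5.25 and 4.43.

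**Figure D4:**
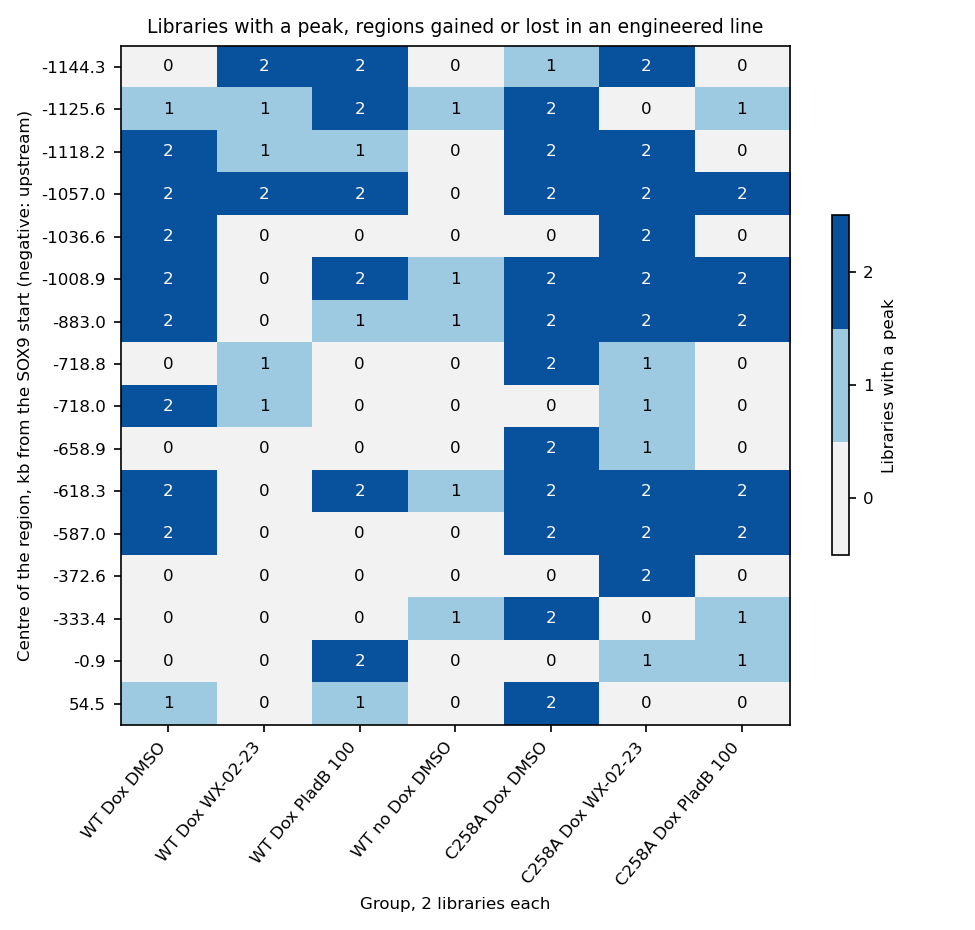
Number of libraries with a peak (0, 1 or 2 of 2, by colour and digit) in each of the 16 regions that were gained or lost in a comparison within an engineered line, by group on the x axis. Rows are labelled by the centre's distance from the SOX9 start in kb. The 5 regions lost with WX-02-23 read 2 and then 0 in the leftmost columns, and 4 of them read 2 throughout the C258A-FOXA1 columns for DMSO and WX-02-23.

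In the C258A-FOXA1 line WX-02-23 went with 2 regions gained (5% of 40) and 3 lost (7.5%), where 2.37% and 2.55% were in the genome. The gained regions were the one at 1036.5 kb, which had the opposite call in the WT-FOXA1 line, and chr17:69744340-69744785 at 372.4 kb, with folds of 6.07 and 6.78 and no peak in any other library. The lost ones lay at 1125.4 kb, 333.2 kb and, downstream, 54.3 kb. No region had the same call with WX-02-23 in both lines. Leaving out a library can only keep or raise these numbers. Without WX-02-23 replicate 1 there were 7 gained, and without DMSO replicate 2 there were 5. Without WX-02-23 replicate 2, DMSO replicate 1 and DMSO replicate 2 there were 5, 6 and 5 lost.

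PladB at 100 nM in the engineered lines gave unlike counts between libraries. In the WT-FOXA1 line the 2 PladB libraries held 16 and 27 regions, on either side of the DMSO libraries, a difference of 1.0 with pairwise differences of -5 to 7. The sign of this difference is not settled, as it was -4.0 with lists of equal length and -4.5 without PladB replicate 2. Of 31 regions, 2 (6.45%) were gained, the one 0.5 kb upstream of SOX9 and the one at 1144.1 kb, where 0.915% were in the genome. Another 3 (9.68%) were lost, at 1036.5 kb, 717.6 kb and 586.8 kb, where 3.05% were in the genome. Without PladB replicate 1 there were 8 gained, and without replicate 2 there were 6 lost.

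In the C258A-FOXA1 line both PladB libraries held 21 regions, below the 26 and 30 with DMSO, a difference of -7.0 with pairwise differences of -9 to -5. Background coverage was lower there too, at 0.567 ± 0.029 reads per base compared with 0.808 ± 0.082 (SD, n = 2), and its part in the lower count was not tested. Per 10000 regions held the groups did not overlap either, at 3.02 ± 0.08 with PladB and 3.53 ± 0.26 with DMSO (SD, n = 2), with pairwise differences of -0.752 to -0.262. None of 35 regions was gained and 4 (11.4%) were lost, where 0.806% and 4.67% were in the genome. The lost regions lay at 1117.9 kb, 718.6 kb and 658.7 kb upstream and 54.3 kb downstream. Without DMSO replicate 1 there were 10 lost, and without PladB replicate 2 there were 3 gained. The PladB change differed by 8.0 regions between the lines (exact permutation p = 0.278 over 36 arrangements, adjusted p = 0.556), and with lists of equal length this difference turned to -3.0. Without WT-FOXA1 PladB replicate 1 it was 13.5 (exact permutation p = 0.0556, the smallest possible), and without replicate 2 it was 2.5 (exact permutation p = 0.778). These p-values do not bear on the change alone either, because the DMSO counts differed between the lines.

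**Figure D5:**
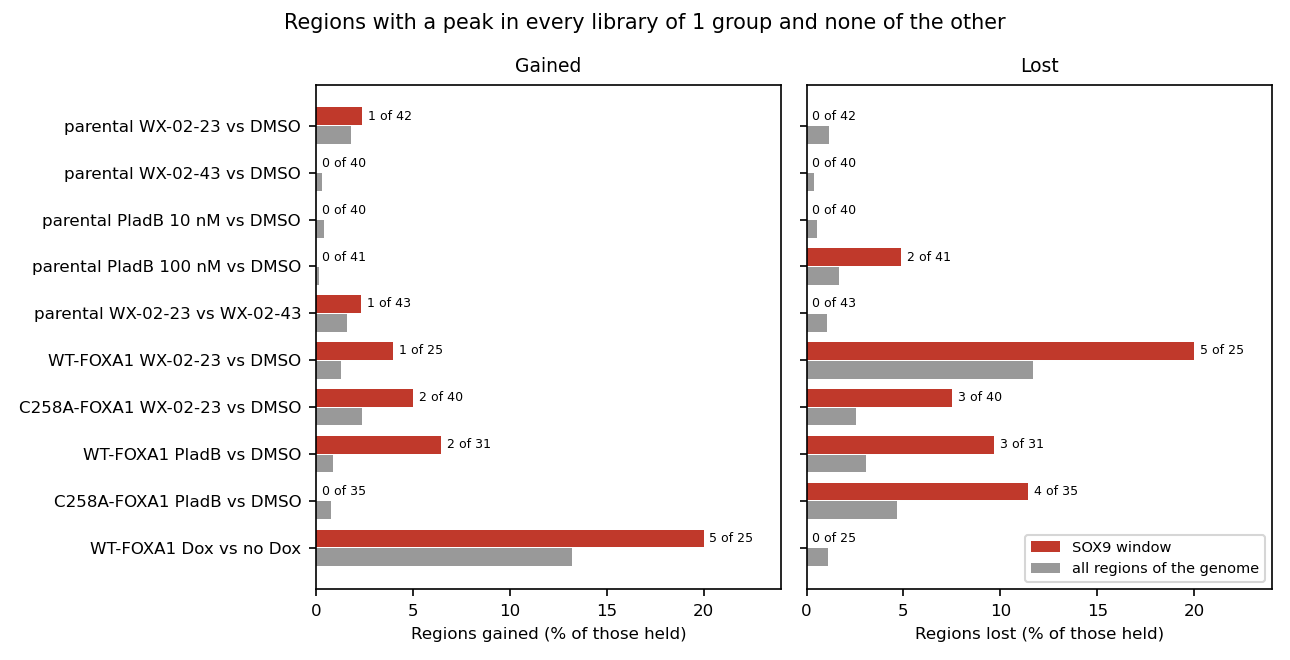
Share of regions gained (left) and lost (right), in percent of the regions held by any library of the comparison, in the SOX9 window (red, with the count) and in the whole genome (grey), for the 10 comparisons on the y axis. The highest shares in the window, 20.0% each, are the 5 regions gained with Dox and the 5 lost with WX-02-23 in the WT-FOXA1 line, beside 13.2% and 11.7% in the genome.

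Regions held by all 15 parental libraries numbered 19, and each engineered group held a smaller share of them in both its libraries than of the 54404 such regions in the genome. Both libraries without Dox held 7 of the 19 (36.8%), where they held 85.0% in the genome, and neither held another 7 (36.8%, against 7.28%). With Dox and DMSO, both libraries of the WT-FOXA1 line held 11 (57.9%, against 88.0%) and both of the C258A-FOXA1 line 13 (68.4%, against 85.8%). With WX-02-23 the shares were 47.4% and 63.2%, against 73.0% and 82.3%, and with PladB 63.2% and 57.9%, against 83.7% and 81.4%. Of the 14 regions held by engineered libraries alone, none was held by a library without Dox, where 4.81% of such regions in the genome were. Both WT-FOXA1 DMSO libraries with Dox held 3 of the 14 and both C258A-FOXA1 DMSO libraries 5, where the genome shares were 27.0% and 33.7%. No test was made of these shares. Parental and engineered libraries may have been processed in separate runs, and all engineered cells also carry Y36C-PHF5A. The transgenes, the run and the line thus cannot be told apart in this comparison.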

How the data were processed

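Per the labels' protocols, a commercial kit was used for ATAC-seq. The submitters' processing notes list Bowtie2, MACS2 and build hg19; their versions and options, and any shifting of reads, are not given there. The authors deposited 1 peak list per library with a score (not used), a ratio (fold enrichment over local background), the −log10 of the p-value and the −log10 of the q-value, in the MACS2 column order. The lowest −log10 q in a list was about 2, a q-value of 0.01, so a region without a peak may still be open below that limit.

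Autosomal, X and Y peaks were merged over all 29 lists. The fold of a region in a library is that of its strongest peak, and percentiles rank the authors' p-value within a list. Gained regions had a peak in every treated and no control library, and lost regions the reverse. Exact permutation tests, two-sided, compared the counts of regions, and p-values were adjusted (Benjamini-Hochberg) over the 5 parental comparisons. The change between engineered lines was tested over 36 arrangements, with line labels permuted within treatment. This permutation takes the lines as alike within each treatment, so its p-values do not separate a differing change from a differing line. Pairwise differences give the lowest and highest difference between a treated and a control library. Relative depth was read from steps of 1 read in the fold values (tolerance 0.0001), on which 14.3% to 25.2% of peaks lay.

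Regions were named by rule: those within 10 kb of SOX9, those gained or lost with WX-02-23 in parental cells or in both engineered lines, those within 100 kb of 69100000 held by at least 8 libraries, the top 5 by percentile in parental DMSO, and up to 5 changed with Dox. Regions gained or lost in other comparisons were named after their values were seen. The members, lists and tests were chosen with earlier results of these data known. The alternatives tried were a stricter q-value (at most 1e-05), 50% of a region covered, lists of equal length, windows of 100 bp on each side of summits, a rule allowing 1 exception, the desert alone, a replicate block and leaving out each library. Counting was tested on simulated data. Marker genes and sequences were not analysed here. The software was scipy 1.17.1, numpy 2.4.6, pandas 2.3.3 and matplotlib 3.10.9 under Python 3.11.15.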

Additional observations from a re-analysis of the deposited data

Results flagged for a closer look

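The region that starts at 69080414, 1036.5 kb upstream of SOX9, moved in opposite directions with WX-02-23 in the engineered lines: both WT-FOXA1 libraries went from a peak with DMSO to none, and both C258A-FOXA1 libraries from none to a peak. The difference between the lines was not tested. With lists of equal length neither call held, with differences in the share of libraries of 0.0 and 0.5.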

How the results depend on the processing

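The 66 results gave 616 recomputed values in all under the alternative settings. Of these, 124 values of single regions with a library left out and 12 of the replicate block could not differ from the main value. Most differences in regions held and in the share of the list kept their sign or, in the engineered lines, stayed within their spread. Of 121 values for regions held, 5 moved beyond the spread between libraries. Some of the others changed sign. In the WT-FOXA1 line the PladB difference of 1.0 became -2.5 at the stricter q-value, -1.0 with 50% cover, -4.0 with equal lists and -0.5 with summit windows, and the C258A-FOXA1 WX-02-23 difference of 0.0 ranged from -4.5 to 3.5. With lists of equal length the PladB change, WT-FOXA1 minus C258A-FOXA1, turned from 8.0 to -3.0 (exact permutation p = 0.33). The WX-02-43 difference turned to 0.5 without WX-02-43 replicate 3, and the PladB 10 nM difference per 10000 turned to 0.0313 without its replicate 2. Lists of equal length gave -0.5 for WX-02-23 in the WT-FOXA1 line, -3.0 for PladB in the C258A-FOXA1 line and 3.5 for Dox, where 50% cover gave 5.5 and summit windows 9.5; the cause was not tested.

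Counts of gained or lost regions were small and moved easily. Allowing 1 exception can only keep or add calls. For WX-02-23 in parental cells, gained regions were 0 at the stricter q-value, 0 with equal lists, 3 with summit windows and 5 with 1 exception, and lost ones were 1 at the stricter q-value, with 50% cover, equal lists and summit windows, and 2 with 1 exception. For WX-02-43, lost regions were 2 at the stricter q-value, 1 with equal lists and 2 with 1 exception. For PladB at 10 nM, gained regions were 1 and lost ones 1 with summit windows, and 1 and 3 with 1 exception. At 100 nM, gained regions were 1 with summit windows, and lost ones 4 with 50% cover, 1 with equal lists and 4 with summit windows. For WX-02-23 against WX-02-43, gained regions were 2 with 50% cover, 2 with summit windows and 5 with 1 exception, and lost ones 1 at the stricter q-value, with 50% cover and with equal lists, and 2 with 1 exception. For WX-02-23 in WT-FOXA1 cells there were 0 gained at the stricter q-value and with 50% cover, and 2 lost with equal lists, and PladB gave 1 gained at the stricter q-value, 0 with 50% cover, 1 with equal lists and 1 in the desert alone. In the C258A-FOXA1 line, WX-02-23 gave 1 gained at the stricter q-value, 4 gained and 1 lost with 50% cover, and PladB 1 gained with summit windows. Dox gave 3 gained with equal lists.

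Leaving out each library gave these ranges, in which the numbers gained or lost could only stay or rise. With WX-02-23 in parental cells, 1 to 2 gained and 0 to 1 lost; with WX-02-43, 0 to 1 lost and differences of -2.5 to 0.5; with PladB at 10 nM, 0 to 1 gained, 0 to 1 lost and -0.130 to 0.0313 per 10000; WX-02-23 against WX-02-43, 1 to 3 gained and 0 to 1 lost. For WX-02-23 in WT-FOXA1 cells there were 1 to 2 gained and 5 to 8 lost, for PladB 2 to 8 gained and 3 to 6 lost, and for Dox 6 to 8 gained and 0 to 2 lost. In the C258A-FOXA1 line, WX-02-23 gave 2 to 7 gained and 3 to 6 lost, and PladB 0 to 3 gained and 4 to 10 lost. Between the lines the PladB change ranged from 2.5 to 13.5 and the WX-02-23 change from -9.5 to -2.5.

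Over the 29 calls of single regions, 34 of 116 recomputed values other than those leaving out a library ended the call; leaving out a library cannot end a call made in this way. The replicate block keeps each difference by construction and changes only the p-value. For WX-02-23 against DMSO the difference was 3.0 (exact sign-flip test over same-numbered libraries, p = 0.5). The p-values of the block were 0.25 or above, and 3 pairs allow none under 0.25. Same-numbered libraries correlated at -0.0204 to 0.0233. With 2 libraries per group, same-numbered and other pairs mirror each other by construction (0.004785 and -0.004785 for WX-02-23 in the WT-FOXA1 line). These values therefore cannot settle whether same-numbered libraries were prepared together.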
